A study of Homo sapiens with 12 samples.

Results

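The 8 genes described here, FOLH1, STEAP1, STEAP2, PSCA, EPCAM, CD276, CEACAM5 and DLL3, encode cell surface proteins that therapies for prostate cancer are directed at, and they were chosen by symbol from the 60660 genes of the deposited tables. They were followed in 12 mRNA sequencing libraries, 3 in each of 4 groups: LNCaP cells and 22Rv1 cells, each transfected either with NC-mimic, a control oligonucleotide, or with piR-4447944 mimic, a chemically modified copy of a PIWI-interacting RNA (a class of small RNAs best known for silencing transposons in germ cells). All 4 groups were kept in CS-FBS medium, whose serum has been stripped of androgen, so the controls were deprived of androgen too. The comparison of mimics asked what raising this piRNA does to transcripts under androgen deprivation, and the comparison of lines asks how far the antigens differ between these models.

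LNCaP is an androgen-sensitive line from a lymph node metastasis of prostate cancer, and 22Rv1 comes from a xenograft that relapsed after castration of its host, so each line stands for 1 tumor. The labels do not say whether the 3 libraries of a group came from separate cultures, while the study states for its figures in general that independent experiments were repeated. The p-values measure only the spread between these libraries, which may be technical. The mRNA tables used here give no level of the piRNA itself, and the amount of protein on the cell surface was not measured.

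Surface antigens serve therapy as addresses: an antibody, a radioligand or an engineered T cell binds the antigen, and its payload or its cytotoxic action then reaches the cell that carries it. FOLH1 encodes prostate-specific membrane antigen (PSMA), a carboxypeptidase whose transcript is known to be held down by androgen signaling and which is bound by the radioligands used in metastatic disease. STEAP1 and STEAP2 are membrane-spanning proteins of the STEAP family of metalloreductases and are enriched in prostate. CD276 is the immune checkpoint ligand B7-H3, EPCAM is an epithelial adhesion molecule, and PSCA is a small lipid-anchored protein of the Ly6 family. DLL3 is an inhibitory Notch ligand typical of neuroendocrine tumors, and CEACAM5 is carcinoembryonic antigen.

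The total expected count ran from 12161091 to 22179601 per library. In 22Rv1 the libraries numbered 3 stood apart in both mimic groups: the chi-square per gene was 41.3 to 118 for pairs that held replicate 3, 8.81 and 7.55 for the pairs without it, and 3.56 to 16.5 for all pairs within LNCaP groups. The 8 markers of luminal prostate epithelium all had a mean above 1 TPM (a level scaled to library size and corrected for transcript length) in every group, and summed to 3592 to 4086 TPM in LNCaP with NC-mimic and 1739 to 1796 TPM in 22Rv1 with NC-mimic. KLK3, which encodes PSA, was at 2043 ± 208 TPM (SD, n = 3) and 49.6 ± 3.6 TPM in these groups, respectively. Basal epithelial markers summed to at most 1.05 TPM in any library, blood cell markers to at most 6.25 TPM and endothelial markers to at most 1.89 TPM. Fibroblast markers, mainly COL1A1, summed to 27.0 to 45.3 TPM in LNCaP and 7.56 to 27.6 TPM in 22Rv1. In bulk RNA, fewer cells of a type and less RNA per cell cannot be told apart.

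The genes lie in different parts of the genome, with 1 exception. In hg38, with GENCODE v44 positions, STEAP1 (chromosome 7, 90154456 to 90164829) and STEAP2 (chromosome 7, 90167590 to 90238137) are neighbors on the plus strand, 2760 bases apart between their outermost GENCODE ends, and the antisense gene STEAP2-AS1 overlaps both. FOLH1 is at 49145092 to 49208638 on the minus strand of chromosome 11, EPCAM at 47345158 to 47387601 on chromosome 2, CD276 at 73683966 to 73714514 on chromosome 15, and DLL3 at 39498895 to 39508481 and CEACAM5 at 41708585 to 41730433 on chromosome 19. The antisense gene JRK overlaps PSCA. STEAP2-AS1 had at most 35 pooled counts in any group, against at least 5356 for STEAP1 and 21011 for STEAP2. How the counting treated strand is not given in the sources used here, so reads of a gene and of its antisense partner may not be separable.

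Promoters of STEAP1, STEAP2, CD276 and CEACAM5 are shown. The first 3 of these genes were lower in 22Rv1 than in LNCaP, and the last had more counts in 22Rv1. The set was not chosen by direction, since FOLH1, also called lower in 22Rv1, had no promoter window among the sequences used here. Each promoter shown is a RefSeq window (GRCh38.p14) of 300 bases, 250 before and 50 after the annotated start, 5′ to 3′ on the plus strand. Capitals mark matches on either strand to GGGCGG (GC box), AGAACA (a core bound by steroid receptors), TGTTTA (forkhead) or CACGTG (E-box).
STEAP1, chr7:90154219-90154518: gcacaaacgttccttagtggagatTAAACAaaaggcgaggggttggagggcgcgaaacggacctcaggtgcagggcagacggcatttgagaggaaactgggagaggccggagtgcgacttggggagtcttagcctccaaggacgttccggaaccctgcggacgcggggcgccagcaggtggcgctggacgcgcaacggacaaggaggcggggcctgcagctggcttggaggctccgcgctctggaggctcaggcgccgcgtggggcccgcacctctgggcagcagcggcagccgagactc
STEAP2, chr7:90211490-90211789: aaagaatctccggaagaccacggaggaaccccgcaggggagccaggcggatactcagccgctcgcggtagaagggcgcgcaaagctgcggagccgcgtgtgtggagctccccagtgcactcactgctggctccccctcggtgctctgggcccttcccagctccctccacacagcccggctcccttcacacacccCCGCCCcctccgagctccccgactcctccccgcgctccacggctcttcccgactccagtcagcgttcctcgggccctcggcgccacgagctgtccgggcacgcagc
CD276, chr15:73684133-73684432: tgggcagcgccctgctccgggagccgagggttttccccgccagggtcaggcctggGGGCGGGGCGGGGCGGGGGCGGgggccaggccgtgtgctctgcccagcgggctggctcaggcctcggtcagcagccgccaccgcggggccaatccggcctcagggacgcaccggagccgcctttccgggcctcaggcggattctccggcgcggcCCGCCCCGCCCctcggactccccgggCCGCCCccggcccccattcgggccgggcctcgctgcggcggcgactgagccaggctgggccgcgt
CEACAM5, chr19:41708376-41708675: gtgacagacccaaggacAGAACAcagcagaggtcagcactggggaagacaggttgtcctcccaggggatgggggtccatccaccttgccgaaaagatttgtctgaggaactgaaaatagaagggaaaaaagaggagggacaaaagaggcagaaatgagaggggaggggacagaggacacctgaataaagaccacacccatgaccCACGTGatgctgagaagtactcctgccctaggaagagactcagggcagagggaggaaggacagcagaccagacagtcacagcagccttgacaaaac

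The STEAP1, STEAP2 and CD276 windows held 27, 28 and 37 CpG dinucleotides, against a median of 14 over 35116 promoters, and the CEACAM5 window held 2, where 11% of promoters held fewer. The CD276 window had 7 matches to GGGCGG, some of them overlapping, and the STEAP2 window had 1, where 45.0% of all promoters held at least 1. STEAP1 had 1 match to TGTTTA, a motif present in 12.3% of promoters. CEACAM5 had 1 match each to AGAACA and CACGTG, present in 14.8% and 7.26% of promoters. The RefSeq start of STEAP2 shown lies inside the GENCODE gene, whose first base is further upstream. A second RefSeq start of STEAP2, 2080 bases downstream, had 2 CpG and 1 match to TGTTTA, and a second start of CD276 had 28 CpG and 2 matches to GGGCGG. These matches describe the letters of the windows, and no binding was measured.

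FOLH1 was the most abundant of the 8 transcripts and clearly separated the lines. In LNCaP its level was 1255, 1343 and 1215 TPM with NC-mimic and 1217, 1209 and 1253 TPM with piR-4447944 mimic. In 22Rv1 it was 295, 231 and 556 TPM with NC-mimic and 269, 240 and 315 TPM with piR-4447944 mimic. Every 22Rv1 library lay below every LNCaP library, and the single high 22Rv1 value was replicate 3 with NC-mimic. By mean level FOLH1 ranked 113 among the 27073 genes above 0 in LNCaP with NC-mimic and 304 among 26073 in 22Rv1 with NC-mimic. In edgeR's quasi-likelihood test FOLH1 was 3.41-fold lower in 22Rv1 with NC-mimic (log2 fold change -1.77, SE 0.29, Benjamini-Hochberg adjusted p = 0.00115) and 4.27-fold lower with piR-4447944 mimic (-2.09, SE 0.15, adjusted p = 7.17e-05). Without replicate 3 of 22Rv1 the log2 fold changes were -2.26 and -2.25.

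FOLH1B, a near-identical copy of FOLH1 with which reads may be shared, moved the other way. It had 38 pooled counts in LNCaP and 221 in 22Rv1 with NC-mimic, and 17 and 134 with piR-4447944 mimic, and was called higher in 22Rv1 under both mimics (log2 fold changes 2.81 and 2.94, adjusted p = 0.00147 and 0.00814 by edgeR). The copy held at most 0.800% of the counts of the pair in any group, so the sum of both genes, 1271 ± 65.4 TPM in LNCaP and 364 ± 174 TPM in 22Rv1 with NC-mimic (SD, n = 3), was close to FOLH1 alone.

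**Figure D1:**
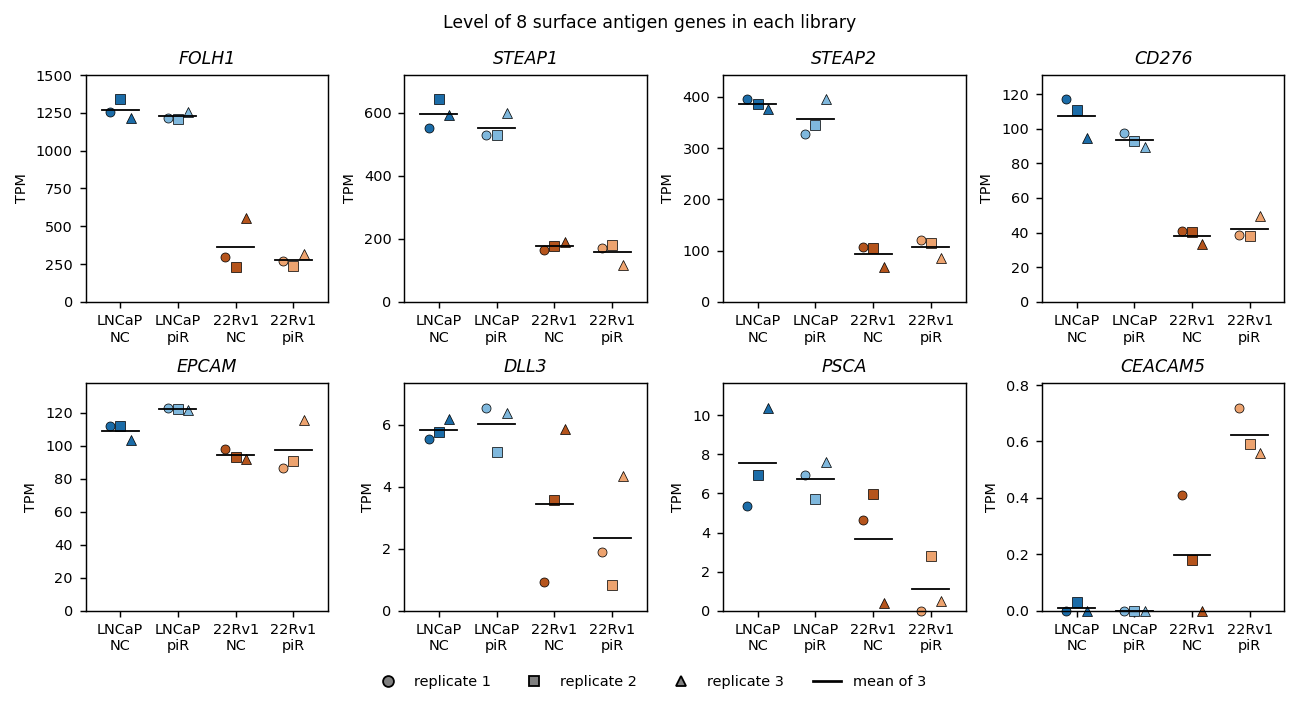
Level of each gene in TPM (y axis, linear from 0, scaled per panel) in the 12 libraries, by line and mimic (x axis; NC, NC-mimic; piR, piR-4447944 mimic); points are libraries with a symbol per replicate number and bars are means of 3. For FOLH1, STEAP1, STEAP2 and CD276 every 22Rv1 library lies below every LNCaP library, whereas EPCAM stays within 86.8 to 123 TPM in all of them.

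Both STEAP genes followed the same order. STEAP1 was at 551, 644 and 594 TPM in LNCaP with NC-mimic and at 166, 176 and 188 TPM in 22Rv1 with NC-mimic. With piR-4447944 mimic it was at 530, 531 and 598 TPM in LNCaP and 172, 182 and 118 TPM in 22Rv1. The lowest value was replicate 3 of the last group, and the lines did not overlap. STEAP1 was 3.25-fold lower in 22Rv1 with NC-mimic (log2 fold change -1.70, SE 0.10, adjusted p = 6.69e-06 by edgeR) and 3.54-fold lower with piR-4447944 mimic (-1.82, SE 0.17, adjusted p = 0.000238). Its paralog STEAP1B had at most 10 pooled counts in a group.

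STEAP2, the neighbor of STEAP1, was at 395, 387 and 376 TPM in LNCaP with NC-mimic and 108, 105 and 68.9 TPM in 22Rv1 with NC-mimic. The piR-4447944 mimic groups had 328, 345 and 396 TPM in LNCaP and 121, 116 and 85.9 TPM in 22Rv1. Replicate 3 was the lowest library of both 22Rv1 groups. The difference between lines was 3.72-fold with NC-mimic (log2 fold change -1.90, SE 0.17, adjusted p = 4.61e-05 by edgeR) and 3.19-fold with piR-4447944 mimic (-1.67, SE 0.16, adjusted p = 0.000264).

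CD276 was also lower in 22Rv1. Its level was 117, 111 and 94.4 TPM in LNCaP with NC-mimic, 97.6, 93.0 and 89.6 TPM in LNCaP with piR-4447944 mimic, 40.9, 40.2 and 33.6 TPM in 22Rv1 with NC-mimic and 38.4, 38.0 and 49.8 TPM in 22Rv1 with piR-4447944 mimic. The lines were separate under either mimic. CD276 was 2.92-fold lower in 22Rv1 with NC-mimic (log2 fold change -1.55, SE 0.10, adjusted p = 8.2e-06 by edgeR) and 2.49-fold lower with piR-4447944 mimic (-1.32, SE 0.14, adjusted p = 0.000374).

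EPCAM differed least between the lines on the log2 scale. It was at 112, 112 and 104 TPM in LNCaP and 97.9, 93.3 and 92.0 TPM in 22Rv1 with NC-mimic, and at 123, 122 and 122 TPM in LNCaP and 86.8, 90.5 and 116 TPM in 22Rv1 with piR-4447944 mimic. The TPM values of the lines did not overlap under either mimic, but neither test passed the threshold (log2 fold changes -0.16, SE 0.08, adjusted p = 0.117, and -0.32, SE 0.14, adjusted p = 0.0831, by edgeR). The value of 116 TPM was replicate 3. Without it the log2 fold change with piR-4447944 mimic was -0.48 (adjusted p = 3.6e-05), and without replicate 3 the value with NC-mimic was -0.17 (adjusted p = 0.104).

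DLL3 was expressed at a low level, and its call between lines depended on replicate 3 of 22Rv1 and on the filter and tool. LNCaP held 153, 157 and 144 expected counts with NC-mimic and 139, 117 and 153 with piR-4447944 mimic, which corresponded to 5.11 to 6.56 TPM. In 22Rv1 there were 28, 32 and 85 counts with NC-mimic and 38, 19 and 91 with piR-4447944 mimic. Replicate 3 was the highest library in both 22Rv1 groups, 4.12-fold and 3.08-fold above the mean of the other two in CPM (library-size-scaled counts, here after TMM). On this scale all 22Rv1 libraries lay below all LNCaP libraries. On the TPM scale the NC-mimic groups overlapped, since the 32 counts of replicate 2 were given 3.59 TPM with an effective length of 709 bases and the 28 counts of replicate 1 were given 0.920 TPM with 1779 bases.

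With all libraries, the DLL3 difference between lines did not pass the threshold of the main test with NC-mimic (log2 fold change -1.31, SE 0.56, adjusted p = 0.0777 by edgeR) or piR-4447944 mimic (-1.41, SE 0.57, adjusted p = 0.0752). Without replicate 3 of 22Rv1 it was -2.34 (adjusted p = 2.47e-05) and -2.23 (adjusted p = 0.000152). With all libraries kept, DESeq2 called DLL3 in both comparisons (adjusted p = 0.0298 and 0.0259), and edgeR without the filter on low counts gave adjusted p = 0.0342 and 0.0503.

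PSCA was low and uneven in 22Rv1. It had 49, 68 and 72 counts in LNCaP with NC-mimic and 53, 48 and 68 with piR-4447944 mimic, against 57, 53 and 1 in 22Rv1 with NC-mimic and 0, 27 and 4 with piR-4447944 mimic. With NC-mimic the single 22Rv1 library far below LNCaP was replicate 3, and with piR-4447944 mimic all 22Rv1 libraries were below all LNCaP libraries. The log2 fold change between lines was -0.75 (SE 0.80, adjusted p = 0.446 by edgeR) with NC-mimic and -2.50 (SE 1.00, adjusted p = 0.0729) with piR-4447944 mimic. Without replicate 3 of 22Rv1 these values were -0.22 (adjusted p = 0.592) and -2.13 (adjusted p = 0.0282), and without replicate 2 of 22Rv1 the second was -4.63 (adjusted p = 0.0101). With all libraries kept, DESeq2 and limma on log2(TPM + 1) called PSCA lower with piR-4447944 mimic (adjusted p = 0.0234 and 0.0104).

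CEACAM5 went in the opposite direction and stayed near the limit of detection. In LNCaP a single count was found, in replicate 2 with NC-mimic. In 22Rv1 there were 10, 3 and 0 counts with NC-mimic and 18, 14 and 15 counts with piR-4447944 mimic, or 0.410, 0.180 and 0 TPM and 0.720, 0.590 and 0.560 TPM. With NC-mimic the gene did not pass the filter on low counts, and the pooled 13 counts against 1 gave a ratio of 14.5 (95% exact interval 2.17 to 614, counting error only). With piR-4447944 mimic 47 pooled counts stood against 0 in LNCaP, where 0 of 48404488 counts allows up to 0.062 CPM. With LNCaP set to that limit over the group, CEACAM5 was 16.0-fold higher in 22Rv1, a value that leaves out the counting error of the 47. The 95% exact interval of the ratio starts at 12.5 (counting error only). The gene passed the filter on low counts only through the 22Rv1 libraries, the group in which it was higher, so its call by edgeR (adjusted p = 0.00289) is not read as support. Its relative CEACAM6, which is similar enough to share reads, had 1 pooled count in each LNCaP group and 183, 129 and 14 counts in 22Rv1 with NC-mimic and 116, 126 and 190 with piR-4447944 mimic. For both genes replicate 3 was the lowest library with NC-mimic.

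**Figure D2:**
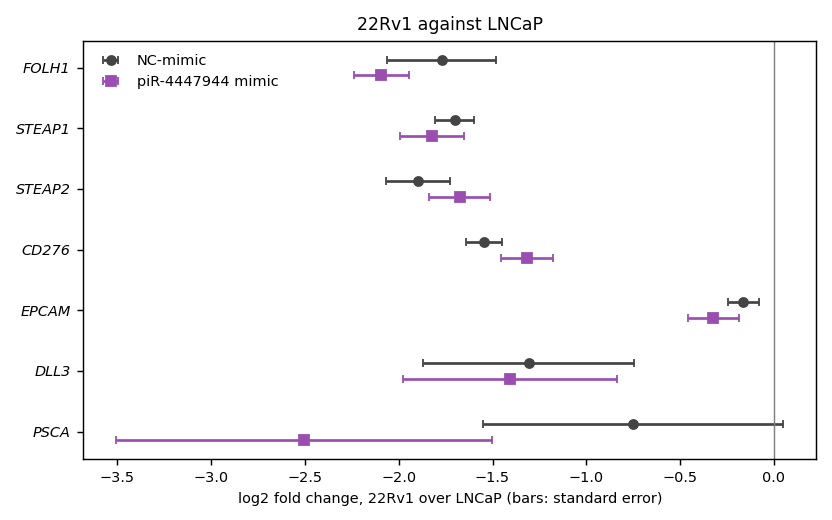
Log2 fold change of 22Rv1 over LNCaP (x axis) with its standard error for 7 genes (y axis) under NC-mimic (circles) and piR-4447944 mimic (squares); CEACAM5 is left out because no LNCaP library with piR-4447944 mimic had a count. FOLH1, STEAP1, STEAP2 and CD276 lie between -2.09 and -1.32, EPCAM lies at -0.16 and -0.32, and DLL3 and PSCA have the widest bars.

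Counted over the 8 genes, 4 were called lower in 22Rv1 with NC-mimic and 0 higher, with 3 tested and not called and CEACAM5 below the filter. Over all 17497 genes tested in this comparison 27.5% were called lower and 30.9% higher. With piR-4447944 mimic 4 were called lower, the same genes, where 24.2% of 17283 genes were called lower and 28.2% higher. The 1 member called higher was CEACAM5, which entered that test only through the group in which it was high. The median log2 fold change of the tested members was -1.55 and -1.54, against 0.01 and 0.04 over all genes. The TPM values of the lines did not overlap for 5 of the 8 genes with NC-mimic and for all 8 with piR-4447944 mimic, where 63.1% and 59.9% of all genes tested did not overlap. The exact two-sided permutation test of 3 libraries against 3 cannot go below p = 0.1, which it reached for those 5 and those 8 genes. The exclusion of replicate 3 of 22Rv1 raised the members called from 4 to 5 under NC-mimic. Under piR-4447944 mimic they rose from 4 lower and 1 higher to all 8, which include CEACAM5, whose call is not read as support. The share of all genes called rose as well, from 58.4% to 66.2% and from 52.4% to 69.5%.

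The order of the levels was partly shared by the lines. In LNCaP with NC-mimic it was FOLH1 (1271 ± 65.2 TPM, SD, n = 3), STEAP1 (597 ± 46.6), STEAP2 (386 ± 9.30), EPCAM (109 ± 4.76), CD276 (107 ± 11.7), PSCA (7.57 ± 2.58), DLL3 (5.85 ± 0.325) and CEACAM5 (0.010 ± 0.0173). EPCAM and CD276 overlapped, and so did PSCA and DLL3. In 22Rv1 with NC-mimic the order was FOLH1 (361 ± 172 TPM), STEAP1 (177 ± 11.2), EPCAM (94.4 ± 3.09), STEAP2 (93.8 ± 21.6), CD276 (38.2 ± 4.02), PSCA (3.66 ± 2.93), DLL3 (3.46 ± 2.47) and CEACAM5 (0.197 ± 0.206). EPCAM and STEAP2 overlapped there, as did PSCA with DLL3 and with CEACAM5.

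The piR-4447944 mimic changed none of the 8 genes past the threshold in either line. In LNCaP 0 of 7 tested members were called at an adjusted p under 0.05, and 0% of the 16244 genes tested were called. In 22Rv1 0 of 8 were called, and again 0% of 16898 genes. At an unadjusted p under 0.05 edgeR gave 433 genes in LNCaP and 250 in 22Rv1, and 1 member, EPCAM in LNCaP, was among them. After adjustment DESeq2 called 2 and 4 genes and limma on log2(TPM + 1) called 1 and 2, and these calls held no member. By the thresholds of the study's looser rule, an unadjusted p under 0.05 with an absolute log2 fold change over 0.2, 0 members were picked in either line, where 2.22% and 1.48% of all genes were picked. These thresholds were applied here to edgeR values without shrinkage, whereas the study used DESeq2 with shrunken log2 fold changes.

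EPCAM was the member with the smallest unadjusted p in LNCaP. Its 3 libraries with piR-4447944 mimic, at 122 to 123 TPM, lay above those with NC-mimic, at 104 to 112 TPM, a log2 fold change of 0.18 (SE 0.06, unadjusted p = 0.0153, adjusted p = 0.999 by edgeR). It was the single member whose mimic groups did not overlap in LNCaP, where 8.4% of all genes tested did not overlap. In 22Rv1 the EPCAM value was -0.01 (SE 0.15). The other members tested in LNCaP had log2 fold changes between -0.10 (STEAP1, SE 0.08) and 0.04 (DLL3, SE 0.16), with FOLH1 at -0.07 (SE 0.05).

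In 22Rv1 CEACAM5 was the single member whose mimic groups did not overlap, where 8.81% of all genes did not. Its 47 pooled counts with piR-4447944 mimic stood against 13 with NC-mimic (ratio 3.81, 95% exact interval 2.03 to 7.67, counting error only). The test over libraries gave a log2 fold change of 2.05 (SE 0.92, unadjusted p = 0.0599, adjusted p = 0.999 by edgeR). CEACAM5 passed the filter on low counts only through the piR-4447944 mimic libraries, the group in which it was higher. None of these CEACAM5 values is therefore read as support. PSCA had a log2 fold change of -1.76 (SE 1.40, adjusted p = 0.999), with 31 pooled counts against 111. With a library left out the PSCA value ran from -3.91, without replicate 2 with piR-4447944 mimic, to -1.18, without replicate 2 with NC-mimic, and that of CEACAM5 from 1.57, without replicate 3 with NC-mimic, to 3.17, without replicate 1 with NC-mimic. FOLH1 had -0.42 (SE 0.33, adjusted p = 0.999), which was 0.07 without replicate 3 with NC-mimic and -0.07 without both libraries numbered 3. The remaining members of 22Rv1 lay between -0.24 (STEAP1, SE 0.19) and 0.17 (CD276, SE 0.15).

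The difference between lines in the mimic effect was fitted over all 12 libraries. None of the 8 members was called, as was 0% of the 18720 genes tested, with 610 genes at an unadjusted p under 0.05 by edgeR, 3 called by DESeq2 and 2 by limma on log2(TPM + 1). The members' values, mimic effect in 22Rv1 minus that in LNCaP, ran from -1.76 (PSCA, SE 1.38) to 3.82 (CEACAM5, SE 2.43), and FOLH1 had -0.34 (SE 0.36), all with an adjusted p of 1.

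**Figure D3:**
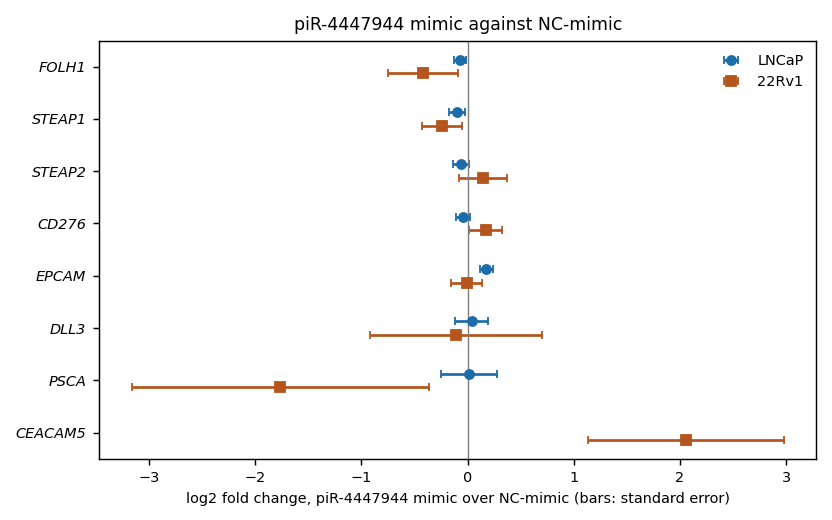
Log2 fold change of piR-4447944 mimic over NC-mimic (x axis) with its standard error for the 8 genes (y axis) in LNCaP (circles) and 22Rv1 (squares); CEACAM5 was not tested in LNCaP. The LNCaP values lie between -0.10 and 0.18, and the 22Rv1 values of PSCA and CEACAM5 lie at -1.76 and 2.05 with standard errors of 1.40 and 0.92.

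The 3′ untranslated regions of the 8 genes were searched for ATAGCTT, the complement of bases 2 to 8 of the piRNA, in the canonical transcript of each gene in GENCODE v44. None of the 8 held it, and 9.99% of 19606 genes with an annotated region did. The regions of the members ran from 96 bases for STEAP1 to 5062 bases for STEAP2, and the absence of these letters says nothing of other ways of pairing.

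Replicate 3 of 22Rv1 moved the members in several directions. On the CPM scale FOLH1 was 2.19 times and DLL3 4.12 times the mean of the other libraries of the NC-mimic group, whereas STEAP2 was 0.655 times that mean and PSCA 0.0269 times. In the piR-4447944 mimic group DLL3 was again higher (3.08 times), and STEAP2 (0.673 times) and STEAP1 (0.646 times) were lower. In LNCaP the corresponding ratios of the 6 members with more than 100 pooled counts in every group lay between 0.898 and 1.16. What sets these 22Rv1 libraries apart was not tested.

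Of 40 listed genes for other surface targets of prostate cancer 34 were tested with NC-mimic, of which 11 were called higher and 14 lower in 22Rv1, and with piR-4447944 mimic 10 and 12 of 34 were. Over all genes tested 30.9% and 27.5% were called higher and lower with NC-mimic and 28.2% and 24.2% with piR-4447944 mimic. Both comparisons called 20 of them in the same direction, 8 higher and 12 lower. CD44, a hyaluronan receptor, had 2 pooled counts in LNCaP and 3980 in 22Rv1 with NC-mimic, where its level was 61.5 ± 6.4 TPM (SD, n = 3). L1CAM, a neural adhesion molecule, had 4 and 425 counts with NC-mimic, but was uneven in 22Rv1 (0.31 to 7.55 TPM). With piR-4447944 mimic its TPM values overlapped between the lines (0.02 to 0.52 in LNCaP and 0.43 to 9.95 in 22Rv1). F3, the tissue factor, had 12 and 409 counts with NC-mimic. Lower in 22Rv1 were TRPV6, a calcium channel (22.5 ± 1.03 and 0.120 ± 0.108 TPM), TRPM8, a cold-sensing channel (196 counts in LNCaP and 1 in 22Rv1), and CD274, the checkpoint ligand PD-L1 and a relative of CD276 (11.5 ± 4.80 and 0.267 ± 0.134 TPM).

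Of 23 listed relatives of the 8 genes, 16 were tested under NC-mimic and 15 under piR-4447944 mimic, and 5 were called higher and 5 lower in the former and 3 and 5 in the latter, shares close to the 58.4% and 52.4% called over all genes. FOLH1B and CEACAM6 were higher in 22Rv1. LY6E, of the family of PSCA, was lower, at 71.8 ± 4.20 TPM in LNCaP and 10.0 ± 8.09 TPM in 22Rv1 with NC-mimic (log2 fold change -2.80, SE 0.47, adjusted p = 0.00116 by edgeR). NCR3LG1, a B7 family ligand of natural killer cells, was higher (0.97, SE 0.13, adjusted p = 0.000342).

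In the Notch pathway, in which DLL3 acts, some of the listed genes differed between the lines. Of 12 listed genes 10 were tested, and 2 were called higher and 6 lower in 22Rv1 under each mimic, where 58.4% and 52.4% of all genes tested were called in either direction. The ligand JAG1 was at 47.1 ± 2.18 TPM in LNCaP and 0.177 ± 0.148 TPM in 22Rv1 with NC-mimic (SD, n = 3), and the ligand JAG2 (log2 fold change -1.17) and the receptor NOTCH2 (-1.68) were also called lower. The target genes HES1, at 2.26 ± 0.328 TPM in LNCaP and 27.0 ± 2.60 TPM in 22Rv1, and HEY1 (1.47) were called higher. The TPM values of HEY1 overlapped between the lines with NC-mimic (0.63 to 1.43 in LNCaP and 1.16 to 2.39 in 22Rv1). HES6, also in the list, was called lower (-1.34). Of the neuroendocrine transcription factors, INSM1 had a mean of at most 0.0233 TPM in any group, and NEUROD1 was at 0 in all libraries. Synaptophysin (SYP), another neuroendocrine marker, was at 0.740 ± 0.130 TPM in LNCaP and 61.2 ± 4.30 TPM in 22Rv1 with NC-mimic.

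Among transcription factors tied to the members, SPDEF, a luminal factor, was called higher in 22Rv1 (log2 fold change 1.38 with NC-mimic, SE 0.25, adjusted p = 0.00185 by edgeR). HOXB13, a homeobox factor of prostate epithelium, and FOXA1, a forkhead pioneer factor, were called lower (-0.66 and -0.67, adjusted p = 0.000913 and 0.000248), and all of these were called in the same direction with piR-4447944 mimic. The difference between lines in the mimic effect was not called for any listed gene. None of the listed genes was called for the mimic in either line.

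**Figure D4:**
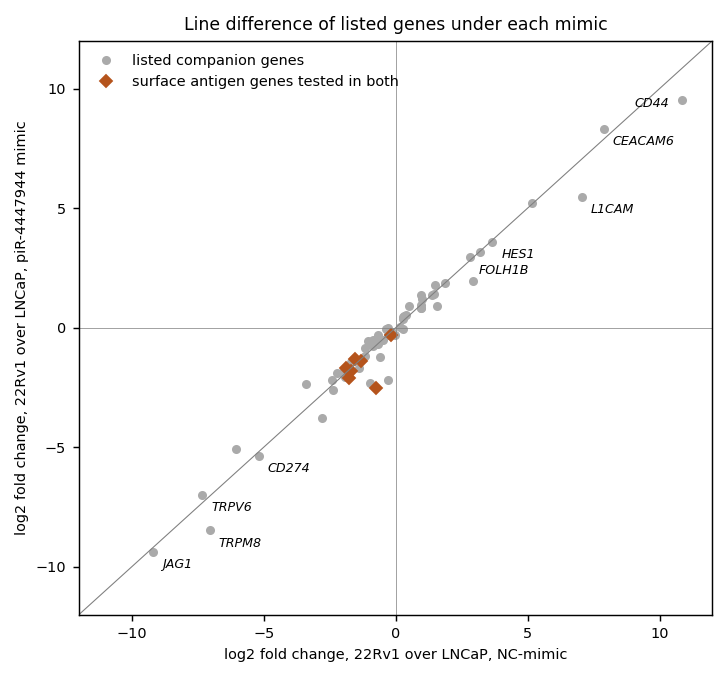
Log2 fold change of 22Rv1 over LNCaP under NC-mimic (x axis) and under piR-4447944 mimic (y axis) for 59 listed companion genes (grey) and 7 surface antigen genes (diamonds), with the line of equal values; the 2 axes share no library. CD44 and JAG1 lie at opposite ends, and values of genes with hardly any counts in a line depend on the prior count of the fit.

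The genes most like each member were sought over the 12 libraries, after the mean of each line was subtracted from log2(TPM + 1), among 14092 genes with a mean of at least 1 TPM in both lines. The highest Pearson correlations were with PRUNE2 (0.975), FOXO1 (0.974) and EPHX1 (0.966) for FOLH1, with FAN1 (0.959), WASL-DT (0.939) and CCNE1 (0.932) for STEAP1, and with VWA2 (0.966), FRG1HP (0.963) and SLC39A8 (0.947) for STEAP2. EPCAM was closest to TNFAIP3 (0.969), PCNP (0.938) and KRT18 (0.924), and CD276 to TEKT4P2 (0.938), FAR2P1 (0.934) and SIRT5 (0.908). DLL3 was closest to OPTN (0.935), MNX1-AS1 (0.935) and EDRF1-DT (0.933), and PSCA to AC074386.1 (0.907), FNDC10 (0.889) and ECHDC3 (0.880). These are the highest of many values and are given as a description; all points share libraries, among them the 22Rv1 libraries numbered 3.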

How the data were processed

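Per the labels and the study's methods, STAR 2.7.1a (genome hg38) and RSEM 1.3.0 were used by the authors to estimate an expected count and a TPM value per gene. Read trimming and strand setting are not given in the sources used here. The authors deposited 1 table of expected counts and TPM per library and a table of TPM over all libraries, whose values were identical. Tests used whole numbers, rounded from these expected counts, in edgeR 4.0.16 (filterByExpr, TMM, quasi-likelihood F test, Benjamini-Hochberg adjusted p under 0.05) in R 4.3.3, 1 fit per comparison over all genes, tested first on simulated data. Alternatives were DESeq2 1.42.0 (with its own independent filtering), limma 3.58.1 on log2(TPM + 1) and log2(TPM + 0.1) for genes with at least 1 TPM in 3 libraries, DESeq2 size factors, no filter (at least 1 count in total), all 12 libraries in one fit, the replicate number as a block, and each library left out in turn. Means are ± SD with n = 3. Intervals are exact (Clopper-Pearson) at 95%, and the limit of a count of 0 is 3 counts. Of 60660 gene identifiers, 60463 were found in GENCODE v44.

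The members and the companion lists were chosen with earlier results of these data known, and no test is adjusted over them alone. The genes named were the 8 members, 3 relatives that may share reads, and up to 6 genes per list with the largest change among those called alike in both comparisons of lines, here ordered by the smaller of the 2 changes; SYP, KLK3, COL1A1, INSM1 and NEUROD1 are markers. Some listed genes are not reported here. Deviations from the group mean were correlated between 22Rv1 libraries of the same number across the mimics (0.232, 0.194 and 0.392). With replicate 3 apart in both groups, replicates 1 and 2 deviate to the other side in both. Pairs of unlike number were not compared, so these values do not show a pairing by number. The main fit of the mimic comparison did not pair libraries by number, so the mimic effects and standard errors given for 22Rv1 leave such a pairing out. A pairing by number entered only through the replicate block, an alternative setting. The labels give only a number and state no pairing. The correlations were 0.039, 0.017 and 0.214 in LNCaP and 0.001 to 0.124 between the lines, which were not taken as pairs.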

Additional observations from a re-analysis of the deposited data

How the results depend on the processing

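The 4 members called lower in 22Rv1 under either mimic kept that call under all alternatives run for them. With the replicate block the members called were 5 under NC-mimic and 6 under piR-4447944 mimic, DLL3 being added in both (adjusted p = 0.0214 and 0.0398), where 55.5% and 47.9% of all genes were called, and 0 in either line for the mimic. The block changed no other call of a member, and between the lines the numbers were not taken to pair libraries. Leaving out 1 library at a time gave 4 to 5 and 5 to 8 members called, the 8 without replicate 3 of 22Rv1 with piR-4447944 mimic, where 69.5% of all genes were called. DESeq2 called 5 and 7, where it called 36% and 33.8% of a larger set of genes. These counts under piR-4447944 mimic hold CEACAM5 wherever it was called, and its call is not read as support. The genes called for the mimic in LNCaP (0) became 46 with no low-count filter, 2 with DESeq2, 1 with limma at either pseudocount and 0 to 2 with a library left out. Those in 22Rv1 (0) became 4 with DESeq2, 2 and 3 with limma at pseudocounts of 1 and 0.1, still 0 with any 1 library left out and 4 with both libraries numbered 3 left out. Those for the difference between lines in the mimic effect (0) became 3, 2 and 1 with these tools and 0 to 1 with a library left out. The genes called between lines, 10226 and 9064, ran from 8453 to 12117 and from 6888 to 12494 with a library left out. The cause of these shifts was not tested.

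Log2 fold changes of the mimic that turned sign were all uncalled. In LNCaP PSCA (0.01) was -0.11 and -0.12 with limma at pseudocounts of 1 and 0.1. In 22Rv1 EPCAM (-0.01) was 0.038 with limma at both and 0.001 with all 12 libraries in one fit. With both 22Rv1 libraries numbered 3 left out, CD276 was -0.011 and DLL3 0.142 in 22Rv1, and the difference between lines was 0.086 for STEAP1 and 0.089 for DLL3. With a library left out the values ran in LNCaP from -0.173 to 0.214 for PSCA, -0.127 to 0.004 for STEAP2, -0.040 to 0.148 for DLL3, and in 22Rv1 from -0.150 to 0.058 for EPCAM, -0.616 to 0.070 for FOLH1, -0.026 to 0.306 for STEAP2, -0.884 to 0.922 for DLL3, and for the difference between lines in the mimic effect from -0.537 to 0.146 for FOLH1, -0.915 to 0.895 for DLL3, -0.238 to 0.030 for STEAP1. All 19 ratios of mean levels between lines moved by less than 1 SD with CPM in place of TPM or with FOLH1B or STEAP1B added. Depth limits PSCA, DLL3 and CEACAM5, which had at most 157 counts in a library.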

Other observations

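Among the listed companion and marker genes, a few had an unadjusted p under 0.05 for the mimic without passing the adjusted threshold; they were picked after their values were seen. In LNCaP these were KRT18, a luminal keratin (log2 fold change 0.19, SE 0.06, unadjusted p = 0.00961), JAG1 (-0.21, SE 0.07, unadjusted p = 0.00999) and ROR1, a surface receptor (-0.39, SE 0.14, unadjusted p = 0.0154), each with an adjusted p of 0.999 by edgeR and TPM groups that did not overlap. Over all 16244 genes tested in LNCaP 8.4% did not overlap, and 433 had an unadjusted p under 0.05 by edgeR. In 22Rv1 these were KLK3 (-0.76, SE 0.28, unadjusted p = 0.0287), KLK2 (-0.53, SE 0.21, unadjusted p = 0.0394) and VTCN1, the checkpoint ligand B7-H4 (-1.31, SE 0.52, unadjusted p = 0.0382), also with an adjusted p of 0.999 by edgeR. The TPM groups did not overlap for KLK3 and VTCN1 and overlapped for KLK2. Over all 16898 genes tested in 22Rv1 8.81% did not overlap, and 250 had an unadjusted p under 0.05 by edgeR. KLK3 was at 49.6 ± 3.6 TPM with NC-mimic and 31.9 ± 7.85 TPM with piR-4447944 mimic in 22Rv1 (SD, n = 3).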
